A study of Homo sapiens with 6 samples.

Results

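The 53 genes described here encode parts of the mitotic machinery: cyclins and kinases, the spindle checkpoint, the kinetochore, kinesins, spindle proteins, cytokinesis factors, condensin and a few general markers of dividing cells. They were chosen by name as a functional list, with earlier results of these data known, and matched by Entrez identifier. All 53 were present among the 23459 genes of the count table. Enough reads for a test were found for 52 of them, and SPC24 was the exception. After depletion of YAP and TAZ, all 52 had a lower fitted level, with a median log2 fold change of -0.92. By edgeR's quasi-likelihood test 25 passed an adjusted p of 0.05 in the direction of a fall, beside 1.22% of all 12510 tested genes. None passed in the other direction. The number passing ran from 0 to 45 when 1 library was left out, beside 0.0788% to 6.22% of all genes then tested.

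At the start of mitosis, CDK1 bound to cyclin B drives chromosome condensation and spindle assembly. Kinetochores, built on centromeres marked by the histone variant CENPA, attach the chromosomes to spindle microtubules, and the spindle checkpoint holds the anaphase-promoting complex (APC/C) inactive until every chromosome is attached. Most of these genes are transcribed in late S, G2 and M phase, and many are bound by the DREAM and MMB-FOXM1 complexes through a promoter element called the CHR (cell cycle genes homology region), so their mRNA levels are widely used as a sign of proliferation.

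The 6 libraries came from MCF10A, an untransformed human mammary epithelial line, grown with horse serum, insulin, hydrocortisone, cholera toxin and EGF and transfected with 20 nM siRNA. The 3 siCtrl libraries received a non-targeting control and the 3 siYAP/TAZ libraries siRNA against the transcriptional coactivators YAP and TAZ, which are encoded by YAP1 and WWTR1. The descriptions of all 6 libraries carry WT, and the labels name no other alteration and give no time between transfection and harvest. The study's methods speak of biological replicates for RNA-Seq, but the labels do not say whether these libraries were separate cultures, so the p-values measure the spread between these libraries, which may be technical. For 2 libraries, siCtrl replicate 2 and siYAP/TAZ replicate 2, title and description name opposite groups, and the group was taken from the description.

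The libraries held 3175149 to 4317286 counts, and a count of 0 allows up to 0.695 to 0.945 CPM (TMM-normalised counts, adjusted for the size of the library), which covers counting error only. YAP1 was at 189 to 210.3 CPM across siCtrl and 112 to 118 CPM across siYAP/TAZ, and WWTR1 at 102 to 109 and 59.8 to 70.5 CPM, so siCtrl replicate 2 and siYAP/TAZ replicate 2 each carried the targeted genes at the level of their description. The log2 fold changes were -0.80 (SE 0.12, adjusted p = 0.0138 in edgeR) and -0.69 (SE 0.13, adjusted p = 0.0311). Markers of mammary basal epithelial cells summed to 1571 to 2176 CPM across siCtrl and 1268 to 1524 CPM across siYAP/TAZ, with all 6 of 6 detected, and the 4 general epithelial markers to 316 to 397 and 293 to 357 CPM. The leukocyte list summed to 5.78 to 11.1 and 4.35 to 8.59 CPM, the endothelial list to 2.26 to 4.01 and 5.67 to 12.9 CPM, without overlap and with PECAM1 the gene of it that was tested (log2 fold change 2.10, adjusted p = 0.0785, 0.0245 with the replicate number as a block), and the fibroblast list to 157 to 173 and 158 to 184 CPM, nearly all from PDGFRA, with COL1A2 and COL3A1 at 0. Over all tested genes, siCtrl replicate 2 stood apart from its group, with a Spearman rho across genes of 0.946 and 0.959 with siCtrl replicates 1 and 3 and of 0.966 with siYAP/TAZ replicate 2. The part of these shifts in the mitotic values was not tested. In a bulk sample, fewer cells in G2 or mitosis and less mitotic RNA per cell cannot be told apart.

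The promoters of the following 5 members are shown because they hold a match to the CHR, which was found in 35 of the 45 members with a promoter entry. Each is the first start listed in the RefSeq promoter table (GRCh38.p14), from 250 bases before the start to 30 bases after it, written 5′ to 3′ on the gene's strand. Capitals mark matches on either strand to the CHR (TTTGAA or TTCGAA, or the reverse complement TTCAAA) and to the CCAAT box (CCAAT, or ATTGG in reverse), the site of NF-Y. Each stretch matched GRCh37 once and exactly, and the positions are those of that match: CDK1 at chr10:62537839-62538118 (plus strand), CCNB2 at chr15:59397095-59397374 (plus strand), MAD2L1 at chr4:120987974-120988253 (minus strand), BUB1 at chr2:111435611-111435890 (minus strand) and CDC20 at chr1:43824402-43824681 (plus strand).
CDK1: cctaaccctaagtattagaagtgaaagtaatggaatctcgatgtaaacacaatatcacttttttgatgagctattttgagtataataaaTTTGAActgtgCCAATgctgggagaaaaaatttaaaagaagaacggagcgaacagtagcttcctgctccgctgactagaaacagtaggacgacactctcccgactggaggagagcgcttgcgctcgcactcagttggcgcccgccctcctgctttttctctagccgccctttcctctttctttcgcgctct
CCNB2: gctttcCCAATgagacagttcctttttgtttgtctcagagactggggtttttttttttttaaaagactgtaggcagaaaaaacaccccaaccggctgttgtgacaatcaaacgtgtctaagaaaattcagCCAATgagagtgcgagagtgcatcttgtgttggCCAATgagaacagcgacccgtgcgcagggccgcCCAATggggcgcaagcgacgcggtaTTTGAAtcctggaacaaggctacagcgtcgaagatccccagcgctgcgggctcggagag
MAD2L1: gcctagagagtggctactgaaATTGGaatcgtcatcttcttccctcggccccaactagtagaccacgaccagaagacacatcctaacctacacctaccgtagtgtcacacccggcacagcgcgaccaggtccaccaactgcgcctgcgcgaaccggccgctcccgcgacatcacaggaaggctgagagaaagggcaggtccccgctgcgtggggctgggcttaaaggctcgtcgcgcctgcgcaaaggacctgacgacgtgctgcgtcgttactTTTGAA
BUB1: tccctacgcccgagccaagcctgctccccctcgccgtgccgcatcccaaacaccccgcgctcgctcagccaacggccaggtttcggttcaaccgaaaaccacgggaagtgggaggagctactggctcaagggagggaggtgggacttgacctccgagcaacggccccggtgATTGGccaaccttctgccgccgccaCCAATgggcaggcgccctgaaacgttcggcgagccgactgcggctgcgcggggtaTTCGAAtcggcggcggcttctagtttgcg
CDC20: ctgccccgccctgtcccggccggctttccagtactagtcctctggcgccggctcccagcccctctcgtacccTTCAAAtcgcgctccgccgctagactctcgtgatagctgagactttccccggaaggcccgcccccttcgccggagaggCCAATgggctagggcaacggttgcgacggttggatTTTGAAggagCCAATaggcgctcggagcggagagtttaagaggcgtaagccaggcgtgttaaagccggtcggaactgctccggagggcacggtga

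In CCNB2 the CHR began 29 bases before the start, with CCAAT boxes 54, 87, 120 and 244 bases before it. CDC20 held a CHR 65 bases and another 178 bases before its start, with CCAAT boxes at 55 and 100. In BUB1 the CHR lay at position 2 after the start, in MAD2L1 at position 25, and in CDK1 161 bases before it. A match is a description of the letters and not evidence of binding.

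A promoter entry was found for 45 of the 53 members, those without one being AURKA, TTK, UBE2C, KNTC1, BIRC5, TPX2, RACGAP1 and FOXM1. Several starts are listed for 8 of the 45, of which the first was used. A match to the CHR letters was found in 35 of the 45 (77.8%), beside 16.6% of 27305 promoters with one per gene and 11.8% of the 10034 promoters of tested genes. Over all 35116 starts in the table the share was 16.4%, and over the members' 53 starts 73.6%. CCAAT boxes were found in 35 of 45 members (77.8%), against 37.1% of tested genes, and both elements together in 28 of 45 (62.2%), against 5.09%. The TEAD motif GGAATG, the letters recognised by the DNA-binding partners of YAP and TAZ, was present in 6 of 45 members (13.3%) and 10.6% of tested genes. An E2F site (TTTGGCGC, TTTCCCGC, TTTCGCGC or TTTGCCGC) was found in 3 of 45 members (6.67%), 5.42% of tested genes and 16 of 30 promoters of DNA replication genes (53.3%), which held the CHR in 6.67%. The median log2 fold change was -0.91 over the 35 tested members with a CHR match and -1.05 over the 9 without a match. The 1146 other tested genes with a CHR match had a median of -0.05. A missing match means only that these exact letters were not in the window of the first start, and other forms of the element were not searched.

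**Figure D1:**
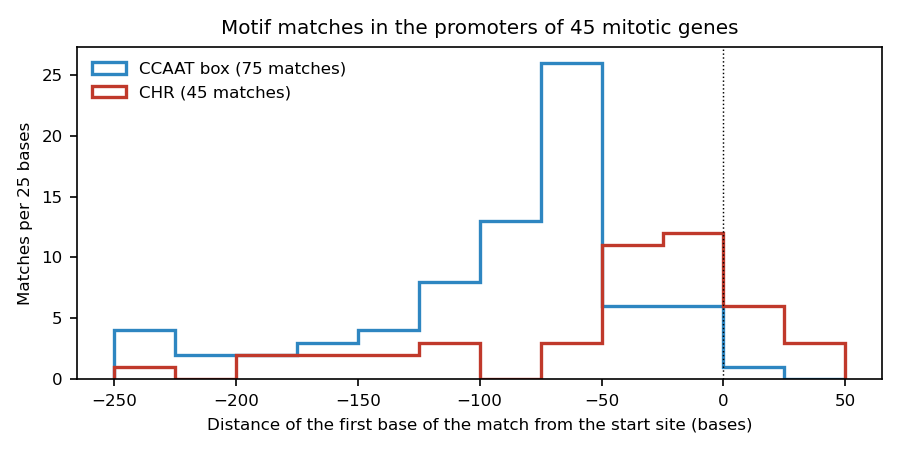
Number of matches per 25 bases to the CHR (red, 45 matches) and the CCAAT box (blue, 75 matches) in the promoters of 45 mitotic genes, by distance of the first matched base from the start site in bases (0 is the start). CCAAT matches were most frequent between 75 and 50 bases before the start, with a median of 74 bases before it, and CHR matches lay nearer to it, with a median of 27 bases before it.

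The levels of the 52 tested members were compared gene by gene over all 12510 tested genes. Of these, 152 (1.22%) passed as lower and 93 (0.743%) as higher, beside 25 and 0 of the 52 members. Without overlap between the groups, 41 members were lower in every siYAP/TAZ library than in any siCtrl library, against 11.1% of all tested genes. The members' log2 fold changes ran from -1.46 (ANLN) to -0.39 (KIF22) with quartiles of -1.07 and -0.83, while the median of all tested genes was -0.00093. Of the 52, 21 had a mean siYAP/TAZ level below 50% of siCtrl, beside 2.18% of all tested genes. The 95% interval of 48 lay below 0, as did that of 9.27% of all tested genes.

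With the replicate number as a block, which compares libraries of the same number, 47 of 52 members passed as lower and 0 as higher, beside 5.44% and 4.66% of all tested genes. The 5 that did not pass in that fit were SPC25, KNTC1, INCENP, KIF22 and FOXM1. The ratio of siYAP/TAZ to siCtrl was below 1 in 52 of 52 members in pair 1, 51 in pair 2 and 52 in pair 3, with median log2 ratios of -0.74, -0.98 and -1.12. KNTC1 in pair 2 was the exception, at 0.02.

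The number of passing members rested on single libraries. Without siCtrl replicate 2 there were 45, beside 6.22% of all 12836 genes then tested, and without siYAP/TAZ replicate 1 there were 27, beside 0.866%. Leaving out siCtrl replicate 1 left 6 (0.49% of all genes), and leaving out siYAP/TAZ replicate 2 left 1 (0.273%). With siCtrl replicate 3 or siYAP/TAZ replicate 3 left out there were 0, beside 0.0788% and 0.0869%. In those fits 44 and 45 members were lower at an unadjusted p under 0.05, against 5.88% and 5.58% of all genes. The median fold change ran from -0.81 to -1.15 over these 6 settings, with 52 of 52 members below 0 in each. By the groups of the titles, 0 members passed either the adjusted or an unadjusted p of 0.05, beside 0% of all genes at the adjusted p, and the median was -0.40. With both libraries of conflicting labels left out, 41 passed, beside 4.64% of all genes, and the median was -0.93.

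**Figure D2:**
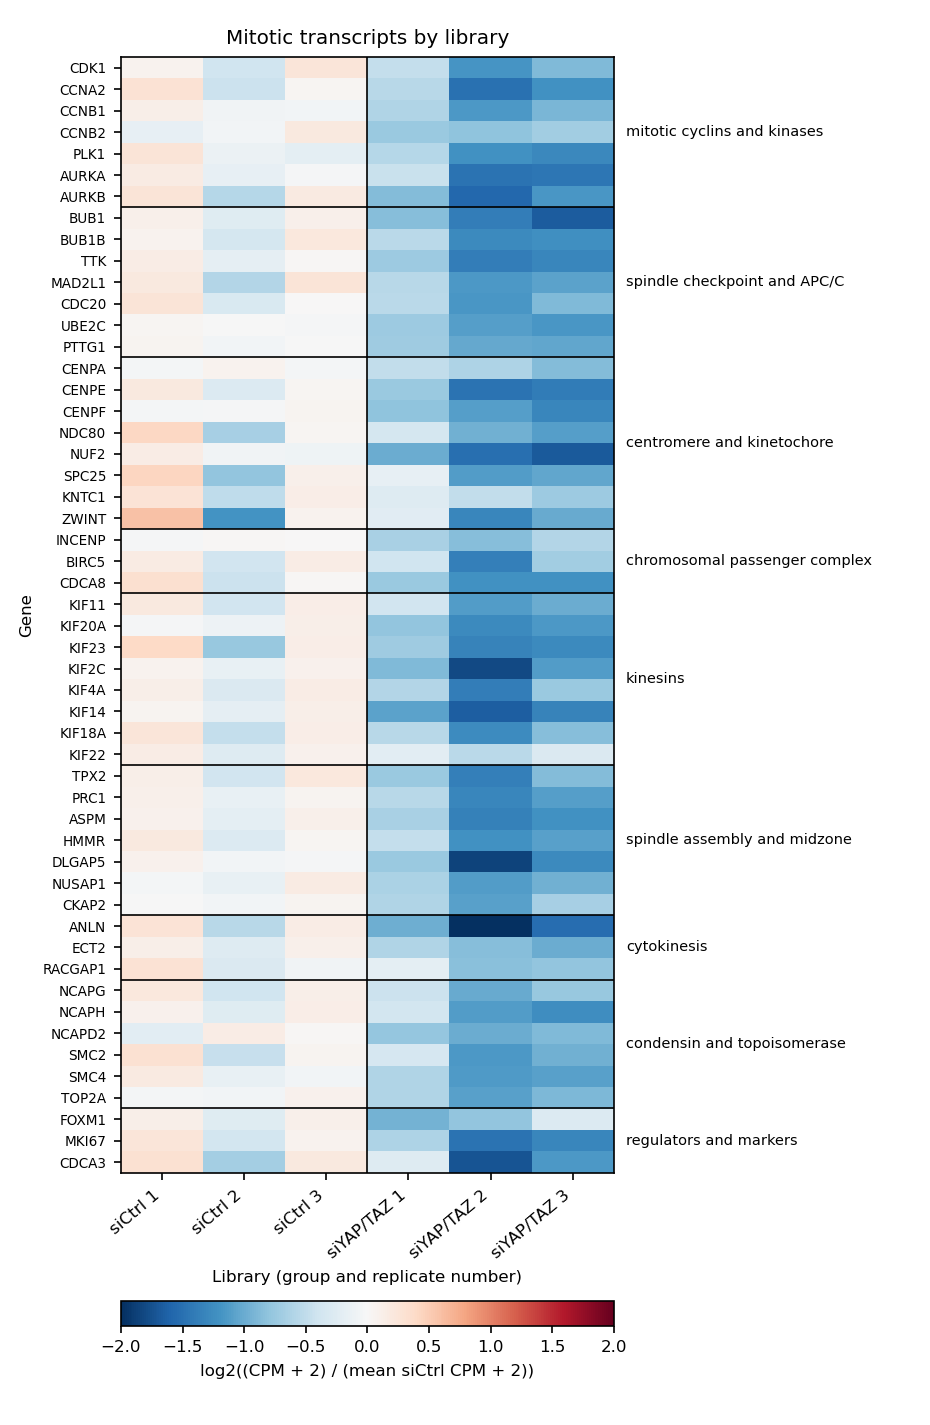
Heat map of the 52 tested members (rows, by role) in the 6 libraries (columns), as log2 of CPM plus 2 over the siCtrl mean plus 2, from blue (lower) to red (higher). The siYAP/TAZ columns are bluer than the siCtrl columns for nearly every gene, siYAP/TAZ replicate 1 is the palest of the 3, and siCtrl replicate 2 is the bluest siCtrl column.

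Among the cyclins and kinases that start and carry mitosis, all 7 members were lower without overlap, beside 11.1% of all tested genes. Of the 7, 3 passed (AURKB, CCNB1 and CCNB2), beside 1.22% of all tested genes. AURKB (Entrez 9212, chr17:8108051-8113918), the Aurora kinase of centromeres and the midzone, was at 132, 73.1 and 125 CPM in the siCtrl libraries against 59.6, 35.7 and 48.1 CPM after siYAP/TAZ. Its level fell to 43.5% of siCtrl, with a log2 fold change -1.20, SE 0.25, adjusted p = 0.0477. CDK1 (Entrez 983, chr10:62538089-62554610), the kinase that triggers mitosis, was at 112, 79.9 and 126 CPM in the siCtrl libraries against 75.7, 45.6 and 56.6 CPM after siYAP/TAZ. Every siYAP/TAZ library was below every siCtrl library, with a log2 fold change -0.83, SE 0.22, adjusted p = 0.0922, and adjusted p = 0.00483 with the replicate block.

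CCNA2 (Entrez 890, chr4:122737599-122745038), the cyclin A of S and G2 phase, was at 182, 110.2 and 153 CPM in the siCtrl libraries against 100.2, 51.2 and 63.4 CPM after siYAP/TAZ, with a log2 fold change -1.05, SE 0.26, adjusted p = 0.0768 (0.000912 with the block). The groups did not overlap. CCNA2 shares 254 exonic bases with EXOSC9 on the opposite strand, which had 581, 340 and 542 counts in the siCtrl libraries against 456, 173 and 257 after siYAP/TAZ, beside 635, 357 and 609 and 442, 155 and 233 for CCNA2, and whether reads were assigned by strand is not stated. CCNB2 (Entrez 9133, chr15:59397325-59417244), a cyclin B partner of CDK1, was at 41.9, 45.7 and 54.8 CPM in the siCtrl libraries against 27.4, 26.4 and 28.6 CPM after siYAP/TAZ, the smallest change of the subgroup (log2 fold change -0.79, SE 0.16, adjusted p = 0.0432). The siYAP/TAZ libraries lay within 2.12 CPM of each other. CCNB1, the principal cyclin B, fell by 0.89 on the log2 scale (adjusted p = 0.0315). The Polo-like kinase PLK1 and the centrosomal kinase AURKA were at -1.01 and -1.07 on the log2 fold scale, and passed with the block (adjusted p = 0.00141 and 0.00325) but not without it (0.0559 and 0.0849). PLK1 shares 58 exonic bases with ERN2 on the opposite strand. ERN2 had 244, 175 and 190 counts in the siCtrl libraries against 176, 72 and 63 after siYAP/TAZ (log2 fold change -1.07). The AURKA copy AURKAP1 had 61, 37 and 60 counts in the siCtrl libraries against 51, 19 and 27 after siYAP/TAZ. With 1 library left out, all 7 passed if it was siCtrl replicate 2 and 4 if it was siYAP/TAZ replicate 1. For each of the other 4, 0 passed. Of all genes, 6.22%, 0.866% and at most 0.49% passed as lower in these fits.

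Of the 7 members of the spindle checkpoint and APC/C subgroup, BUB1, TTK, UBE2C and PTTG1 passed, beside 1.22% of all tested genes. Without overlap, 6 were lower, beside 11.1%. BUB1 (Entrez 699, chr2:111395105-111435640), a checkpoint kinase of the kinetochore, was at 80.7, 63.3 and 80.9 CPM in the siCtrl libraries against 40.6, 27.4 and 22.3 CPM after siYAP/TAZ. Its level fell to 40.2% of siCtrl, with a log2 fold change -1.31, SE 0.22, adjusted p = 0.0225. PTTG1 (Entrez 9232, chr5:159848862-159855746), the securin that restrains separase, was at 273, 255 and 263 CPM in the siCtrl libraries against 159.8, 129 and 128 CPM after siYAP/TAZ. It fell by 0.93 on the log2 scale (SE 0.14, adjusted p = 0.0138), and its near-copies PTTG2 and PTTG3P had at most 29 and 75 counts in a library.

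MAD2L1 (Entrez 4085, chr4:120976778-120988013), the checkpoint protein that binds CDC20, was at 111, 63.9 and 117 CPM in the siCtrl libraries against 65.5, 42.97 and 45.1 CPM after siYAP/TAZ. The groups overlapped, since siCtrl replicate 2 was below siYAP/TAZ replicate 1, and it gave a log2 fold change -0.92, SE 0.25, adjusted p = 0.0962 (0.0062 with the block). CDC20 (Entrez 991, chr1:43824652-43828874), the APC/C activator that the checkpoint holds, was at 59.7, 39.8 and 50.01 CPM in the siCtrl libraries against 33.5, 21.2 and 26.1 CPM after siYAP/TAZ, with no overlap and a log2 fold change -0.88, SE 0.22, adjusted p = 0.0756 (0.00435 with the block). UBE2C, an APC/C ubiquitin-conjugating enzyme, fell by 1.01 on the log2 scale (adjusted p = 0.0157) and the kinase TTK by 1.15 (adjusted p = 0.0288). BUB1B, the BubR1 checkpoint kinase, gave a log2 fold change -0.999, SE 0.24, adjusted p = 0.0688 (0.00518 with the block). It shares 240 exonic bases with PAK6 on the same strand. PAK6 had 142, 99 and 191 counts in the siCtrl libraries against 130, 55 and 88 after siYAP/TAZ (log2 fold change -0.73). All 7 passed with the block and without siCtrl replicate 2, beside 5.44% and 6.22% of all genes as lower. With another library left out, 5 passed without siYAP/TAZ replicate 1 and 1 without siCtrl replicate 1, beside 0.866% and 0.49%. Without each of siCtrl replicate 3, siYAP/TAZ replicate 2 and siYAP/TAZ replicate 3, 0 passed, beside at most 0.273%.

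The core APC/C subunits were taken as a comparison from the same complex. Of 14 subunits 13 were tested and ANAPC2, with at most 1 count in a library, was not. Among the 13, 0 passed, beside 1.22% of all tested genes as lower, and the median log2 fold change was -0.15. At an unadjusted p under 0.05, 2 were lower, beside 9.27% of all tested genes, and 5 were lower without overlap, beside 11.1%. CDC26 had the lowest at -0.68 (adjusted p = 0.224) and ANAPC16 the highest at 0.24 (adjusted p = 0.406). The others were ANAPC1 at -0.51, CDC23 at -0.24, ANAPC4 at -0.21, ANAPC5 and ANAPC10 at -0.18, ANAPC15 and CDC27 at -0.15, ANAPC11 at -0.03, CDC16 at -0.01, ANAPC7 at 0.11 and ANAPC13 at 0.20. ANAPC1 alone passed with the block (adjusted p = 0.0322).

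In the centromere and kinetochore subgroup, 3 of 8 tested members passed (CENPE, CENPF and NUF2), beside 1.22% of all tested genes. Lower without overlap were 4 of the 8, beside 11.1%. NUF2 (Entrez 83540, chr1:163236366-163325554), a microtubule-binding subunit of the NDC80 complex, was at 147, 126 and 125 CPM in the siCtrl libraries against 65.3, 45.3 and 39.98 CPM after siYAP/TAZ. It fell to 37.9% of siCtrl, with a log2 fold change -1.39, SE 0.19, adjusted p = 0.0107. CENPF (Entrez 1063, chr1:214776528-214837917), a kinetochore protein of G2 and M, was at 619, 629.5 and 665 CPM in the siCtrl libraries against 365, 295 and 258 CPM after siYAP/TAZ. Its lowest siCtrl library was 1.70 times its highest siYAP/TAZ library, and the change was a log2 fold change -1.06, SE 0.16, adjusted p = 0.0138. CENPE (Entrez 1062, chr4:104026506-104119602), a kinesin that moves chromosomes to the metaphase plate, was at 310.2, 222 and 276 CPM in the siCtrl libraries against 159.8, 95.9 and 101 CPM after siYAP/TAZ, with a log2 fold change -1.17, SE 0.21, adjusted p = 0.0303.

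KNTC1 (Entrez 9735, chr12:123011793-123110943), the ROD protein that brings dynein and the checkpoint to kinetochores, was at 22.1, 12.03 and 19.9 CPM in the siCtrl libraries against 14.7, 12.2 and 10.1 CPM after siYAP/TAZ. The groups overlapped, and the change did not pass in either fit (log2 fold change -0.54, SE 0.28, adjusted p = 0.346, 0.19 with the block). SPC24 (Entrez 147841, chr19:11242196-11266483), another NDC80 subunit, had 1, 3 and 4 counts in the siCtrl libraries against 3, 5 and 3 after siYAP/TAZ. Both groups were close to the 3-count floor, so this depth does not allow a difference to be detected. SPC25, its partner, gave a log2 fold change -0.83, SE 0.44, adjusted p = 0.363 (0.0841 with the block), and NDC80 gave a log2 fold change -0.81, SE 0.31, adjusted p = 0.222 (0.0274 with it). The centromeric histone CENPA had a log2 fold change of -0.71 and ZWINT of -0.82, with adjusted p = 0.0963 and 0.375 without the block and 0.0418 and 0.0451 with it. ZWINT, NDC80, SPC25 and KNTC1 are the 4 of the subgroup whose groups overlapped, and in each siCtrl replicate 2 was the lowest siCtrl library. Without siCtrl replicate 2, 5 of the 8 passed, 3 without siYAP/TAZ replicate 1 and 2 without siCtrl replicate 1. With any of the other 3 left out, 0 passed. Of all genes, 6.22%, 0.866%, 0.49% and at most 0.273% passed as lower in these fits.

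Over the 24 other kinetochore subunits the median log2 fold change was -0.69, and 23 were below 0. CENPW was the lowest (-1.33, adjusted p = 0.024) and CENPT the highest (0.06, adjusted p = 0.883). CENPW alone passed, beside 1.22% of all tested genes as lower. With the block 8 passed, beside 5.44% of all tested genes as lower.

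The chromosomal passenger complex, which corrects faulty attachments, comprises AURKB with INCENP, BIRC5 and CDCA8. CDCA8 (Entrez 55143, chr1:38158153-38175391), the borealin subunit, was at 74.7, 43.5 and 60.6 CPM in the siCtrl libraries against 34.7, 24.5 and 24.5 CPM after siYAP/TAZ. It fell to 46.8% of siCtrl (log2 fold change -1.09, SE 0.23, adjusted p = 0.0479). BIRC5 (Entrez 332, chr17:76210267-76221717), survivin, was at 61.2, 41.4 and 60.3 CPM in the siCtrl libraries against 40.6, 19.8 and 32.6 CPM after siYAP/TAZ, with a log2 fold change -0.80, SE 0.26, adjusted p = 0.155 (0.0077 with the block). Its highest siYAP/TAZ library was 0.78 CPM below its lowest siCtrl library. INCENP, the scaffold of the complex, was at 9.76, 10.2 and 10.1 CPM in the siCtrl libraries against 5.67, 4.63 and 5.98 CPM after siYAP/TAZ. The groups did not overlap, but the change passed in neither fit (log2 fold change -0.87, SE 0.26, adjusted p = 0.123, 0.0756 with the block). CDCA8 passed when siCtrl replicate 2 or siYAP/TAZ replicate 1 was left out, and not when any of the other 4 was.

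Kinesins move along or depolymerise microtubules, and 3 of the 8 in the list passed (KIF14, KIF2C and KIF20A), beside 1.22% of all tested genes. KIF14 (Entrez 9928, chr1:200520625-200589879), a midzone and cytokinesis kinesin, was at 233, 199 and 243 CPM in the siCtrl libraries against 106, 70.7 and 88.1 CPM after siYAP/TAZ. It fell to 39.3% of siCtrl, with a log2 fold change -1.34, SE 0.17, adjusted p = 0.00879, and it was the member that passed most often with 1 library left out, in 4 of 6 fits. KIF20A (Entrez 10112, chr5:137514408-137523412), which takes the passenger complex to the midzone, was at 139.6, 132 and 153 CPM in the siCtrl libraries against 81.1, 57.2 and 62.6 CPM after siYAP/TAZ, with a log2 fold change -1.07, SE 0.16, adjusted p = 0.0138. The groups did not overlap. KIF20A shares exonic bases with 2 genes on the opposite strand. BRD8 (132 bases) had 243, 279 and 311 counts in the siCtrl libraries against 342, 225 and 363 after siYAP/TAZ, and CDC23 (74 bases) 239, 182 and 252 against 242, 146 and 205.

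KIF22 (Entrez 3835, chr16:29802048-29816706), a chromosome-arm kinesin, was at 14.9, 10.8 and 14.3 CPM in the siCtrl libraries against 11.3, 8.59 and 10.6 CPM after siYAP/TAZ. It had the smallest change of all 52 members, the groups overlapped, and it passed in neither fit (log2 fold change -0.39, SE 0.24, adjusted p = 0.449, 0.323 with the block). KIF2C, a microtubule depolymerase, had a log2 fold change of -1.28 (adjusted p = 0.0314). KIF23, KIF4A, KIF18A and KIF11 had -1.11, -0.91, -0.90 and -0.82, with adjusted p of 0.0922, 0.0871, 0.098 and 0.117 without the block, and each passed with it (0.00267, 0.00605, 0.00396 and 0.00839). The near-copy KIF4B of KIF4A had at most 26 counts in a library. Leaving out 1 library gave 7 passing kinesins for siCtrl replicate 2, 3 for siYAP/TAZ replicate 1 and 2 for siCtrl replicate 1. For siYAP/TAZ replicate 2 the number was 1, and for replicate 3 of either group 0. The shares of all genes passing as lower were 6.22%, 0.866%, 0.49%, 0.273% and at most 0.0869%.

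Among the spindle assembly and midzone proteins 6 of 7 passed, beside 1.22% of all tested genes. All 7 were lower without overlap, beside 11.1%. ASPM (Entrez 259266, chr1:197053251-197115824), a spindle pole protein, was at 639.6, 530.5 and 647 CPM in the siCtrl libraries against 384, 235 and 261 CPM after siYAP/TAZ. It fell to 48.5% of siCtrl (log2 fold change -1.04, SE 0.20, adjusted p = 0.032). TPX2 (Entrez 22974, chr20:30327074-30389608), which activates AURKA on the spindle, was at 138, 97.2 and 148 CPM in the siCtrl libraries against 75.2, 48.6 and 69.4 CPM after siYAP/TAZ, with a log2 fold change -0.99, SE 0.21, adjusted p = 0.0477. DLGAP5 (Entrez 9787, chr14:55614830-55658326), a spindle-stabilising protein also called HURP, was at 77.8, 70.7 and 72.4 CPM in the siCtrl libraries against 43.3, 18.8 and 29.4 CPM after siYAP/TAZ. It had the largest change of the subgroup, to 41.4% of siCtrl (log2 fold change -1.25, SE 0.25, adjusted p = 0.0384).

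CKAP2 (Entrez 26586, chr13:53029564-53050763), a microtubule-associated protein, was at 93.9, 90.4 and 98.5 CPM in the siCtrl libraries against 61.6, 43.3 and 58.5 CPM after siYAP/TAZ and had the smallest change (log2 fold change -0.79, SE 0.16, adjusted p = 0.0388). PRC1, which bundles midzone microtubules, and NUSAP1, which binds microtubules near chromosomes, fell by 0.96 and 0.91 on the log2 scale (adjusted p = 0.0415 and 0.0311). PRC1 shares 1892 exonic bases with PRC1-AS1, which had 139, 123 and 151 counts in the siCtrl libraries against 123, 56 and 72 after siYAP/TAZ. HMMR, a hyaluronan receptor that also acts on the spindle, gave a log2 fold change -0.90, SE 0.22, adjusted p = 0.0688 and passed with the block (0.00197). Omitting siCtrl replicate 2 gave 7 passing members, omitting siYAP/TAZ replicate 1 gave 5, and omitting any of the other 4 libraries gave 0. The shares of all genes passing as lower were 6.22%, 0.866% and at most 0.49%.

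Of the 3 cytokinesis members, ANLN and ECT2 passed, beside 1.22% of all tested genes. ANLN (Entrez 54443, chr7:36429430-36493400), anillin of the contractile ring, was at 194, 108 and 178 CPM in the siCtrl libraries against 80.2, 39.01 and 54.7 CPM after siYAP/TAZ. It had the largest fall of all 52 members, to 36.2% of siCtrl, with a log2 fold change -1.46, SE 0.28, adjusted p = 0.0348, and the lowest siCtrl library was 28.1 CPM above the highest siYAP/TAZ library. ECT2 (Entrez 1894, chr3:172468472-172539264), the activator of RhoA at the cleavage furrow, was at 93.6, 71.9 and 92.5 CPM in the siCtrl libraries against 55.98, 46.6 and 42.4 CPM after siYAP/TAZ, with a log2 fold change -0.83, SE 0.17, adjusted p = 0.0384. RACGAP1 (Entrez 29127, chr12:50370706-50426919), the centralspindlin partner of KIF23, was at 47.7, 31.5 and 36.9 CPM in the siCtrl libraries against 33.5, 20.8 and 21.5 CPM after siYAP/TAZ. Here siCtrl replicate 2 lay below siYAP/TAZ replicate 1, and the change passed with the block alone (log2 fold change -0.60, SE 0.24, adjusted p = 0.231, 0.035 with it). ANLN and ECT2 both passed without siCtrl replicate 2, 1 of the 3 passed without siYAP/TAZ replicate 1, and 0 without any other library. Of all genes, 6.22%, 0.866% and at most 0.49% passed as lower in these fits.

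Condensin compacts chromosomes and topoisomerase II alpha untangles them. TOP2A (Entrez 7153, chr17:38544777-38574148) was at 549.7, 548 and 604 CPM in the siCtrl libraries against 374, 267 and 304 CPM after siYAP/TAZ, with no overlap and a log2 fold change -0.85, SE 0.15, adjusted p = 0.0303. SMC4 (Entrez 10051, chr3:160117062-160152742), a core subunit of both condensins, was at 636, 504 and 537 CPM in the siCtrl libraries against 368, 253 and 264 CPM after siYAP/TAZ, with a log2 fold change -0.92, SE 0.18, adjusted p = 0.035. SMC4 shares 243 exonic bases with IFT80, which had 2445, 1865 and 2439 counts in the siCtrl libraries against 1951, 1004 and 1265 after siYAP/TAZ, beside 2213, 1633 and 2136 and 1625, 764 and 969 for SMC4. It also shares 1553 exonic bases with TRIM59, which had 102, 80 and 156 counts in the siCtrl libraries against 150, 79 and 128 after siYAP/TAZ (log2 fold change 0.03, adjusted p = 0.963). As for CCNA2, the strand setting of the counting is not stated.

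SMC2, the other shared core subunit, was at 312, 182 and 262 CPM in the siCtrl libraries against 199, 112 and 129 CPM after siYAP/TAZ. The groups overlapped by siCtrl replicate 2 and siYAP/TAZ replicate 1, and the change passed with the block (log2 fold change -0.78, SE 0.25, adjusted p = 0.149, 0.0026 with it). Among the subunits of condensin I, NCAPD2 was at 86.4, 112 and 103 CPM in the siCtrl libraries against 57.6, 49.6 and 53.6 CPM after siYAP/TAZ and fell by 0.90 on the log2 scale (adjusted p = 0.0182). Unlike in most members, siCtrl replicate 2 was the highest siCtrl library here. NCAPH (Entrez 23397, chr2:97001504-97042829), the kleisin of condensin I, was at 26.7, 20.98 and 27.9 CPM in the siCtrl libraries against 19.04, 10.6 and 9.52 CPM after siYAP/TAZ, with a log2 fold change -0.93, SE 0.28, adjusted p = 0.131 (0.0282 with the block).

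NCAPG (Entrez 64151, chr4:17812602-17846488), the remaining condensin I subunit, was at 120.05, 78.7 and 113 CPM in the siCtrl libraries against 76.4, 50.9 and 60.6 CPM after siYAP/TAZ, the smallest change of the subgroup (log2 fold change -0.73, SE 0.20, adjusted p = 0.103, 0.00507 with the block). NCAPG shares 1634 exonic bases with LCORL, which had 526, 580 and 664 counts in the siCtrl libraries against 663, 479 and 585 after siYAP/TAZ. The 3 subunits of condensin II had log2 fold changes of -0.77 (NCAPG2, adjusted p = 0.152), -0.56 (NCAPD3, 0.26) and 0.09 (NCAPH2, 0.91), and the groups overlapped in each. NCAPG2 and NCAPD3 passed with the block (0.024 and 0.043), and the difference between the condensins was not tested. In the subgroup, 6 passed with siCtrl replicate 2 omitted, 4 with siYAP/TAZ replicate 1 omitted and 1 with siCtrl replicate 1 omitted. With any other library omitted, 0 passed. The shares of all genes passing as lower were 6.22%, 0.866%, 0.49% and at most 0.273%.

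MKI67 (Entrez 4288, chr10:129894923-129924687), which encodes the proliferation antigen Ki-67, was at 402, 265 and 356 CPM in the siCtrl libraries against 221, 121 and 137 CPM after siYAP/TAZ. The groups did not overlap, and it gave a log2 fold change -1.09, SE 0.24, adjusted p = 0.0543 (0.000665 with the block). FOXM1 (Entrez 2305, chr12:2966846-2986340), a transcription factor of the G2 and M genes, was at 25.8, 19.7 and 25.6 CPM in the siCtrl libraries against 11.3, 12.9 and 19.3 CPM after siYAP/TAZ. No siYAP/TAZ library reached the lowest siCtrl library, but the change passed in neither fit (log2 fold change -0.71, SE 0.25, adjusted p = 0.182, 0.0619 with the block). CDCA3, a trigger of mitotic entry, gave a log2 fold change -0.99, SE 0.42, adjusted p = 0.26 and 0.0174 with the block. None of the 3 passed with all libraries, while 2 passed with siCtrl replicate 2 omitted and 1 with siYAP/TAZ replicate 1 omitted. The shares of all genes passing as lower in these fits were 1.22%, 6.22% and 0.866%. MYBL2, the B-MYB factor that works with FOXM1 at the same promoters, had -1.09 (adjusted p = 0.128, and 0.00844 with the block). The 7 tested genes of its MuvB and B-MYB list had a median of -0.33 with 0 passing, beside 1.22% of all tested genes. RBBP4 was the highest at -0.03. Of the 7, 1 was lower at an unadjusted p under 0.05, beside 9.27% of all tested genes.

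**Figure D3:**
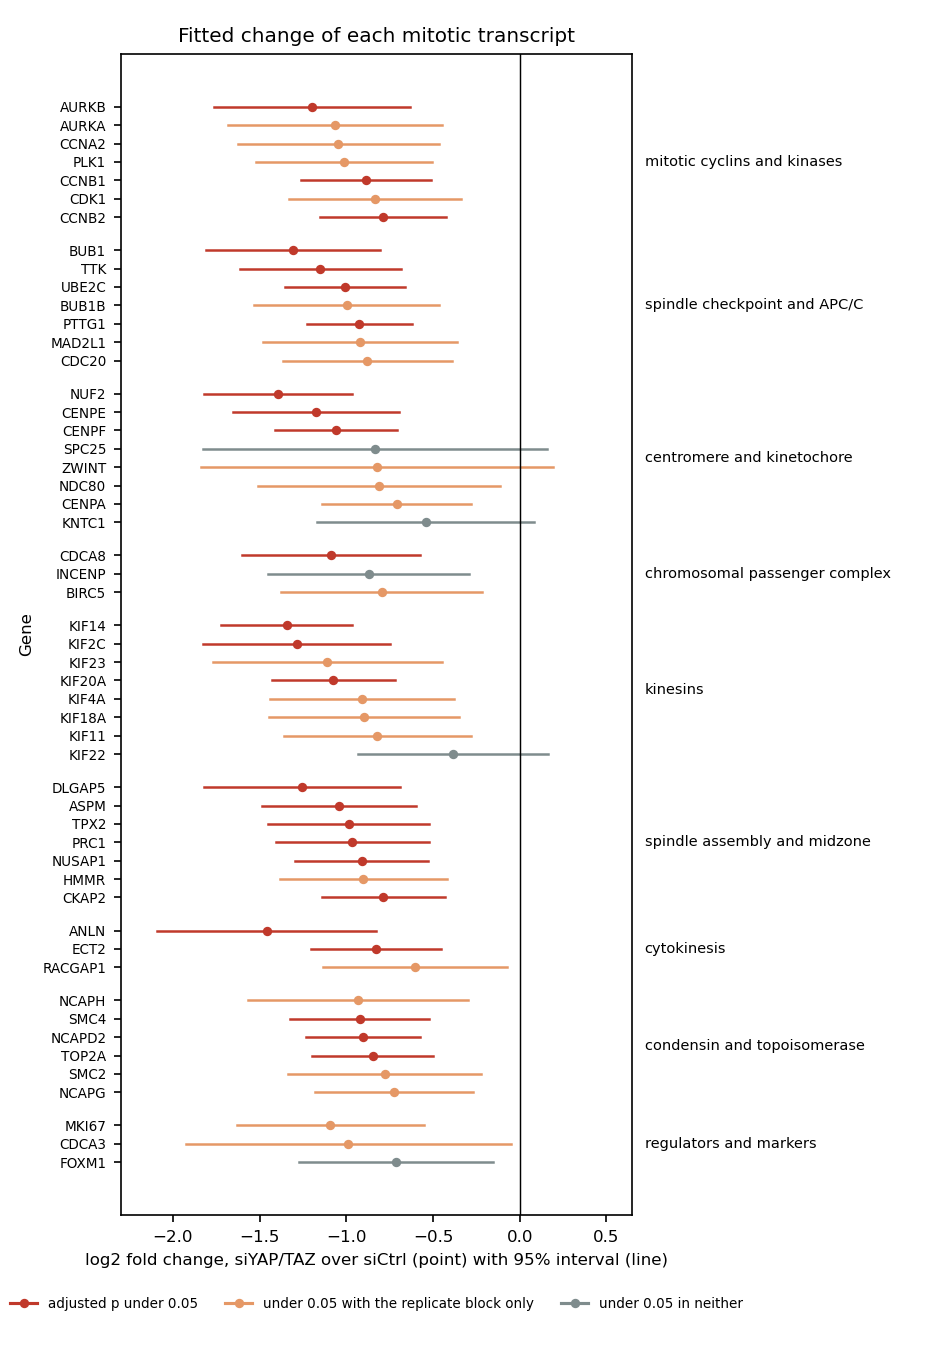
Fitted log2 fold change of each of the 52 tested members (points) with its 95% interval (lines), by role and sorted by size within it. Red marks an adjusted p under 0.05 (25 genes), orange an adjusted p under 0.05 with the replicate block only (22 genes) and grey neither (5 genes), and every point lies below 0.

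In all, 16 members share exonic bases with another gene of the count table. Among those not yet named are ANLN (with MATCAP2), CDCA3 (GNB3), CENPA (SLC35F6), FOXM1 (ITFG2), KIF4A (PDZD11), NCAPD2 (MRPL51), NUSAP1 (OIP5 and OIP5-AS1) and RACGAP1 (AQP6).

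The same libraries stood at the edge of their group in most members. In 44 of 52 members siCtrl replicate 2 was the lowest siCtrl library, and in 49 of 52 siYAP/TAZ replicate 1 was the highest siYAP/TAZ library. In 52 of 52, siYAP/TAZ replicate 1 was below siCtrl replicates 1 and 3, and each of the 11 overlaps between the groups involved siCtrl replicate 2 and siYAP/TAZ replicate 1. In KNTC1 siYAP/TAZ replicate 2 also exceeded siCtrl replicate 2, as did siYAP/TAZ replicate 3 in ZWINT. The summed CPM of the 52 members was 7446, 5894 and 7160 in siCtrl and 4322, 2834 and 3113 in siYAP/TAZ. No siYAP/TAZ library reached the lowest siCtrl library.

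The 33 genes of DNA replication, whose expression peaks earlier in the cell cycle, were set beside the mitotic members. Their summed CPM was 2271, 1049.5 and 2070 in siCtrl and 1423, 919.6 and 1107 in siYAP/TAZ. Here siCtrl replicate 2 fell between siYAP/TAZ replicates 2 and 3, so the groups overlapped. Of the 33, 32 had log2 fold changes below 0 and the median was -0.75. At the adjusted p 0 passed, beside 1.22% of all tested genes as lower, and 10 passed with the block, beside 5.44%. At an unadjusted p under 0.05, 11 were lower, beside 9.27%. CDC45 was the lowest (-1.23, adjusted p = 0.213, 0.0241 with the block) and ORC1 the highest (0.11, adjusted p = 0.902). The ratio of the members' summed CPM to that of the replication genes was 3.28, 5.62 and 3.46 in siCtrl and 3.04, 3.08 and 2.81 in siYAP/TAZ, highest in siCtrl replicate 2, and the part of that library in the results was not tested beyond leaving it out. Summed CPM of the 13 APC/C subunits was 816, 802 and 815 in siCtrl and 780.1, 794 and 742 in siYAP/TAZ.

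**Figure D4:**
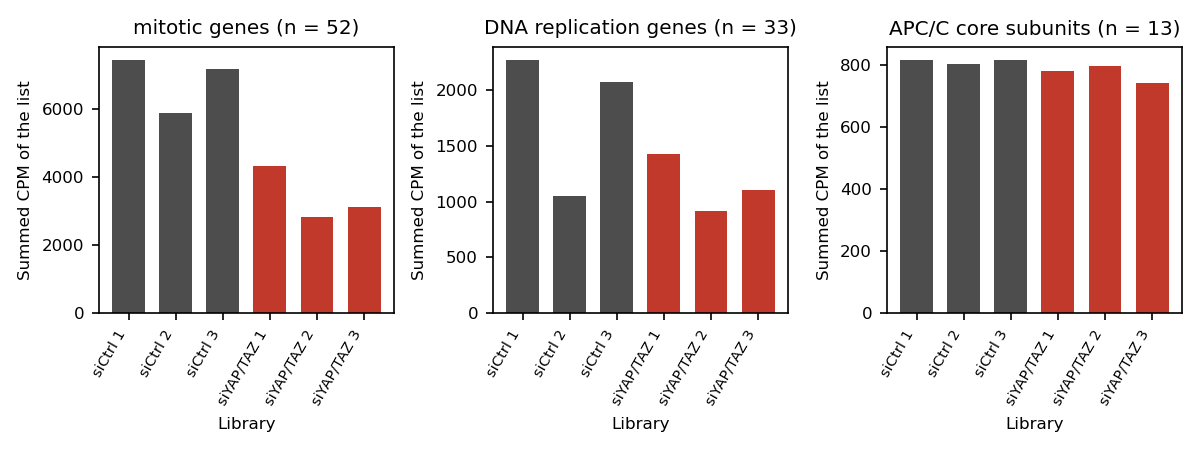
Summed CPM per library of the 52 mitotic members, the 33 DNA replication genes and the 13 core APC/C subunits, in siCtrl (grey) and siYAP/TAZ (red) libraries, with bars from 0. The mitotic sum separates the groups (5894 or more against 4322 or less), siCtrl replicate 2 stands with the siYAP/TAZ libraries in the replication panel, and the APC/C bars lie between 742 and 816.

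The other mitotic genes that are not among the 53 were followed by list. Of 107 tested genes in the 7 related lists, 97 had a log2 fold change below 0, with a median of -0.47. As lower, 10 passed, beside 1.22% of all tested genes, and 38 passed with the block, beside 5.44%. As higher, 0 passed, beside 0.743%. Among the 18 regulators of mitotic entry and exit the phosphatase CDC25C, which activates CDK1, was at 28.7, 41.4 and 44.98 CPM in the siCtrl libraries against 12.01, 12.9 and 12.5 CPM after siYAP/TAZ (log2 fold change of -1.62, SE 0.22, adjusted p = 0.0107). The kinase NEK2 passed too (-1.39, adjusted p = 0.0101), CDC25B was the highest at 0.35 (adjusted p = 0.431) and the median of the list was -0.56. Among 30 other spindle, centrosome and midbody genes, 6 passed (KIF15, KIF18B, KIF20B, CKAP5, PSRC1 and FAM83D), the median was -0.59, GTSE1 was the lowest (-1.26, adjusted p = 0.0546, 0.00278 with the block) and TUBGCP6 the highest (0.52, adjusted p = 0.619).

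Cohesin, which holds sister chromatids together, was represented by 12 genes with a median of -0.18. SGO2, the shugoshin that protects centromeric cohesin, was the lowest (-1.01) and STAG2 the highest (0.12, adjusted p = 0.766). SGO2 alone passed (adjusted p = 0.0493), beside 1.22% of all tested genes, and 4 passed with the block, beside 5.44%. With the same block, 7 entry and exit regulators and 15 other spindle genes passed as lower, beside 5.44% of all tested genes.

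**Figure D5:**
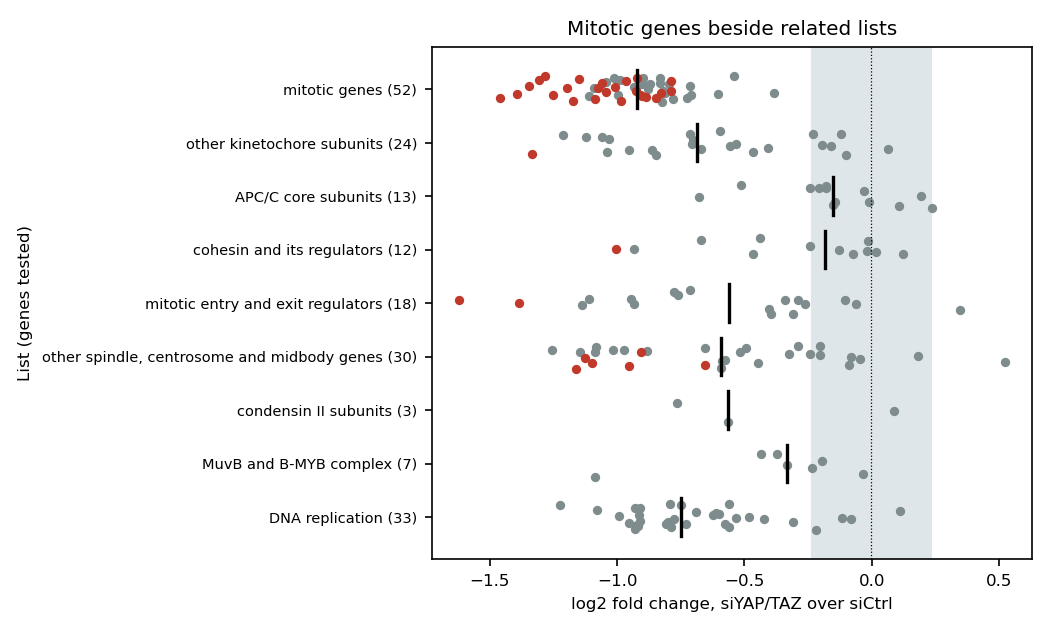
Log2 fold change of every tested gene in the mitotic list and in 8 comparison lists (points; red for an adjusted p under 0.05), with the median of each list as a black bar and the quartiles of all tested genes as a grey band. The mitotic list lies furthest left with a median of -0.92, and the APC/C and cohesin lists lie nearest to 0.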

How the data were processed

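Sequencing libraries were prepared with the QuantSeq 3′ mRNA kit, which reads the 3′ end of each polyadenylated transcript, so a count does not scale with transcript length. The authors deposited 1 table of raw counts per Entrez gene, with no normalisation. The submitters' processing notes name cutadapt 4.2, Bowtie2 2.3.5.1 and hg19. The study's methods for RNA-Seq describe counting in R by overlap with genes, and whether this was used here, with which annotation and strand setting, is not given in the sources used here. No row lacked a gene, and 23308 identifiers, with 99.66% of the counts, matched symbols of the RefSeq gene table of GRCh38.p14, used for names only. Gene positions come from the GENCODE 44 annotation mapped to GRCh37, which has the coordinates of hg19.

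Groups and replicate numbers were taken from the descriptions. Libraries of a group differed beyond sampling noise (chi-square of 5.37 to 17.4 per degree of freedom) and each counted as 1 replicate. Differences were tested by edgeR 4.0.16 in R 4.3.3, with its quasi-likelihood test, default low-count filter, TMM scaling and Benjamini-Hochberg adjustment over the 12510 genes tested, at a threshold of 0.05. The method was tested on simulated data with the means and library sizes of this comparison. Among 12358 genes, 80.9% of 47 genes lowered by 1 and 100% of 48 genes lowered by 2 on the log2 scale were recovered. Every simulated gene had the same dispersion and no library stood apart from its group. These shares therefore do not give the power of the test in the real libraries. Alternatives were DESeq2 1.42.0, which the study names, other scalings, filters and dispersions, the groups of the titles, a replicate block and leaving out libraries. As a pairing check, libraries of the same number were compared by their deviations from the group means over all genes. The r was 0.42, 0.35 and 0.13, each above 0.1. Libraries of different numbers were not compared, so the check cannot show that this pairing is better than another. The block follows the numbers of the descriptions, and whether these mark shared cultures is not stated. Values with the block are given where a call or count of calls changes.

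The members and lists were chosen with earlier results of these data known. In each subgroup, values per library are given for the 2 members with the highest mean CPM, the largest and smallest fold changes, members that were not tested, and all subunits of condensin I. Of condensin II, the core APC/C subunits and the other lists, fold changes are given. INCENP was added after its values were seen. Some genes of the marker lists and of the overlaps are not reported here.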

Additional observations from a re-analysis of the deposited data

How the results depend on the processing

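The tested members kept a log2 fold change below 0 in each alternative run (49 members where a mean of at least 50 counts was required and 52 in the others). With all libraries, 25 members passed as lower, beside 1.22% of all genes, and 245 genes passed in either direction. DESeq2 gave 40 members, beside 2.57% of 12933 genes as lower, and 587 genes in either direction. Omitting the low-count filter gave 37 members, beside 1.56% of 19181 genes as lower, and 556 genes in either direction. With the replicate block, which pairs the libraries by number, 47 members passed, beside 5.44% of all genes, and 1263 genes in either direction. No passing member was lost with the block. With both libraries of conflicting labels left out, 41 members passed, beside 4.64% of all genes as lower, and 1183 genes in either direction. By the groups of the titles, 0 members and 0 genes passed (464 genes and 0 members at an unadjusted p under 0.05), and the median log2 fold change of the members was -0.40 in place of -0.92. With 1 library left out, the members passing ranged from 0 to 45, the genes from 16 to 1579 and the median from -0.81 to -1.15. Library size alone gave 19 members, RLE scaling 25, robust dispersion 26 and a mean of at least 50 counts 21. The shares of all genes passing as lower were 1.17%, 1.24%, 1.39% and 1.34%. Of 777 values for single members, 93 passed where they had not and 133 no longer passed, while 0 reversed. The depth leaves SPC24, at 1 to 5 counts per library, without a test, and DESeq2 and the fit without the filter, which test it, put it above 0. The cause of the shifts was not tested.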
